A study of Mus musculus with 8 samples.

Results

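The 9 genes of homologous recombination, the Fanconi anemia pathway and the checkpoint that goes with them, examined in spleen neutrophils of *Cxcr2-/-* and WT mice, were *Brca1*, *Brca2*, *Rad51ap1*, *Fanca*, *Fancd2*, *Fanci*, *Exo1*, *Blm* and *Chek1*. They were chosen by symbol, as repair genes tied to dividing cells, through the GENCODE M21 annotation, and are 9 of the 55414 genes listed in the count files. The study compared the transcriptomes of neutrophils with and without CXCR2, a receptor for neutrophil-attracting chemokines, by RNAseq. Neutrophils were enriched with a positive selection for CD11b and sorted as CD45+ CD11b+ Ly6G+ F4/80- cells, and each of 4 WT and 4 *Cxcr2-/-* mice gave 1 spleen library. All mice of both groups were 10 weeks old, on an FVB background and in SOPF housing. The *Cxcr2-/-* mice carried the deletion in all cells from the germline, after backcrossing to FVB, so the cells around the neutrophils lacked the receptor as well. The libraries were made from RNA depleted of ribosomal RNA and kept the strand of the transcripts.

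Homologous recombination repairs a broken or stalled DNA end by copying from the sister chromatid, and therefore works in the S and G2 phases of the cell cycle. The end is cut back by nucleases, BRCA1 and BRCA2 prepare the single strand for the search of the intact copy, and helicases such as BLM resolve the joined molecules. The Fanconi pathway deals with crosslinks between the strands: a core complex attaches ubiquitin to the pair FANCD2 and FANCI, which directs the cut and hands the break to recombination, while CHK1 holds the cell cycle. Neutrophils divide as bone marrow precursors and stop dividing before they mature, and many of these genes are known targets of the cell cycle regulators E2F and DREAM.

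The promoters of the genes were searched first for short motifs bound by cell cycle regulators. Windows of 300 bases, from 250 before to 50 after the start site, came from RefSeq on GRCm38.p6, which held 7 of the 9 genes; *Fancd2* and *Exo1* had no entry. The motifs were searched on both strands: a first form of the E2F motif (TTTCCCGC, TTTCGCGC, TTTGCCGC or TTTGGCGC), a second form (GGCGGGAA), the CHR motif of DREAM targets (TTTGAA) and the CCAAT box of NF-Y (CCAAT). The first form can overlap the second by 7 bases. The letters were chosen after the promoters had been seen, so the counts only describe these windows. *Brca2* held the first E2F form, and 2.26% of all 32851 promoters did. *Chek1* and *Rad51ap1* held the second form, found in 2.19% of all promoters. *Blm*, *Brca1*, *Fanca* and *Rad51ap1* held CCAAT, as did 37.4% of all promoters, and none of the 7 held TTTGAA, which 17.9% of all promoters did. The 4 windows below are the 3 with an E2F motif and that of *Fanca*, the gene that differed most from the others in its values. Capitals mark the motifs.
Brca2: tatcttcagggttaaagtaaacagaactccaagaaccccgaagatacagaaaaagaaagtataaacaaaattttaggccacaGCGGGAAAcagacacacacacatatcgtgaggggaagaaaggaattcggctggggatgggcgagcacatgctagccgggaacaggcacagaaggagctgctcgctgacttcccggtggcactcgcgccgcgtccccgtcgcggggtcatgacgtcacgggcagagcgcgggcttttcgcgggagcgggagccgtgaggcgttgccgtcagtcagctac
Chek1: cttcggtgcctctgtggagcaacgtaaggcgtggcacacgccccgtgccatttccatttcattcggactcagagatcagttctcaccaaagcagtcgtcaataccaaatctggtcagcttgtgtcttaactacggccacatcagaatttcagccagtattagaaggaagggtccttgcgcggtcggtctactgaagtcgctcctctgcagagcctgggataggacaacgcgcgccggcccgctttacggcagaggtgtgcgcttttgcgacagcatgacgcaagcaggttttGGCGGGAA
Rad51ap1: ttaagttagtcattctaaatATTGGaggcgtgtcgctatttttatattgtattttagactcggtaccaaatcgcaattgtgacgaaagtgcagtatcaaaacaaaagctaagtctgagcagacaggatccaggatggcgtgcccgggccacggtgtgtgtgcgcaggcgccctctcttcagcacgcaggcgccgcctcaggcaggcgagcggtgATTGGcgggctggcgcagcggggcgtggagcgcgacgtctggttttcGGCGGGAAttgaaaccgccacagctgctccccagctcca
Fanca: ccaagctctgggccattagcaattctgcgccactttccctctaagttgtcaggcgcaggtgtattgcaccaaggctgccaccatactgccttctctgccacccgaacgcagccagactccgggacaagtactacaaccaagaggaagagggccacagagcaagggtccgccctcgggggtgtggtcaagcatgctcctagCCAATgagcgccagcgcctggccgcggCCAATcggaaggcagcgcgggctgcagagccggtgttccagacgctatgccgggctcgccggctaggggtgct
In the window of *Brca2* (chr5:150522371-150522670, plus strand) the motif lies 168 bases before the start site. In that of *Chek1* (chr9:36726609-36726908, minus strand) it begins at base 43 and in that of *Rad51ap1* (chr6:126939538-126939837, minus strand) at base 12 after it. *Fanca* (chr8:123318527-123318826, minus strand) has CCAAT 50 and 23 bases before its start site. A match shows letters, not binding.

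A WT library had between 34220182 and 46233555 counts on genes, and a *Cxcr2-/-* library had between 37549648 and 43789253. *Cxcr2* itself fell from between 1719 and 2252 CPM (the count of a gene relative to the TMM-scaled size of its library) in WT to between 12.9 and 20.7 CPM in *Cxcr2-/-* libraries, in the direction of each label. The share of read pairs that matched no counted feature was 31.4% to 41.5% for WT and 26.7% to 31.9% for *Cxcr2-/-* libraries. The top 10 genes held 9.45% to 11.6% of a WT library and 17.0% to 19.2% of a *Cxcr2-/-* library. The neutrophil markers *Ly6g*, *Itgam*, *S100a8* and *Ptprc* were at 166 CPM or more in all 8 libraries, and of the 9 genes of their list 5 were called higher and 2, *Csf3r* and *Ptprc*, lower. CPM in all sentences is a level, and a fold or log2 fold change is a difference of *Cxcr2-/-* over WT. Where a gene is said to have risen or fallen, its p in the quasi-likelihood test of edgeR, adjusted by Benjamini-Hochberg over 16778 tested genes, was under 0.05, and a gene was called when its change was also at least 1.5-fold.

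All 9 genes passed the filter on low counts, and all 9 rose in *Cxcr2-/-* neutrophils by the adjusted p alone, by which 23.7% of all tested genes rose and 21% fell. With the 1.5-fold threshold, 8 were called higher and none lower, beside 15.7% of all tested genes called higher and 15.7% called lower. Upper-quartile normalization moved the calls over all genes from 2628 higher and 2628 lower to 1975 higher and 3227 lower, and left the log2 fold changes of the 9 genes between 0.32 and 1.68. The groups did not overlap for 7 of the 9 genes, and 22.5% of all tested genes had no overlap with *Cxcr2-/-* libraries on the higher side. The median log2 fold change of the 9 was 1.19, from 0.45 for *Fanca* to 1.79 for *Fancd2*, and that of all tested genes was 0.01. The levels were low, except for *Fanca*: the other 8 genes had between 18 and 283 counts per WT library and between 78 and 553 counts per *Cxcr2-/-* library. *Fanca* and *Chek1*, whose groups overlapped, had adjusted p-values near the threshold. Since the RNA came from whole sorted populations, more cells of a type and more RNA per cell cannot be told apart.

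**Figure D1:**
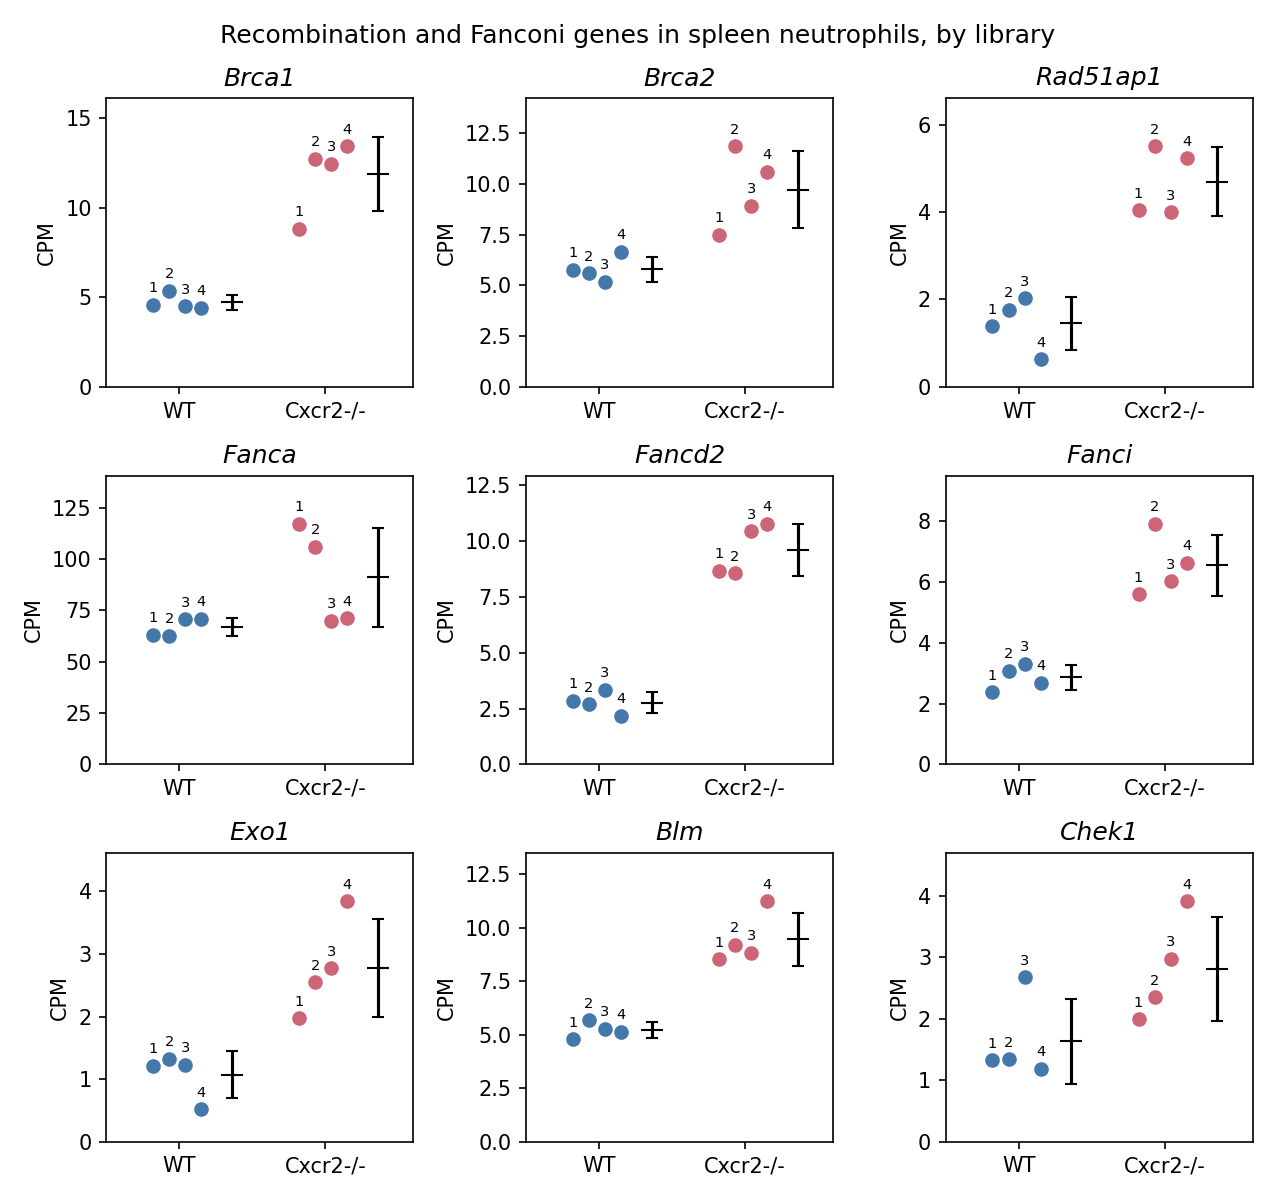
CPM of each gene (vertical axes, starting at 0 and scaled by gene) in the 4 WT libraries (blue) and the 4 *Cxcr2-/-* libraries (red), numbered by mouse, with the mean and SD of each group as a black bar. For 7 genes all red points lie above all blue ones; for *Fanca* and *Chek1* the groups overlap.

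*Brca1* codes for the tumor suppressor that acts with BARD1 and promotes the cutting back of the end, and its gene (ENSMUSG00000017146) lies on GRCm38 chr11:101488764-101551955, minus strand. Its level was 4.58, 5.37, 4.49 and 4.43 CPM in WT mice 1 to 4 and 8.82, 12.7, 12.5 and 13.4 CPM in *Cxcr2-/-* mice 1 to 4. The groups did not overlap, and *Cxcr2-/-* mouse 1 was the lowest of its group, with the other 3 close together. The means were 4.71 ± 0.439 and 11.9 ± 2.07 CPM (SD, n = 4 each), and the log2 fold change was 1.33 (SE 0.16, adjusted p = 2.73e-05, edgeR).

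*Brca2* (ENSMUSG00000041147, chr5:150522630-150570329, plus strand) codes for a tumor suppressor that mediates recombination on the single strand. It was at 5.77, 5.61, 5.18 and 6.65 CPM in WT and at 7.51, 11.9, 8.92 and 10.6 CPM in *Cxcr2-/-* mice 1 to 4. All *Cxcr2-/-* libraries lay above all WT libraries, with the smallest step from WT mouse 4 to *Cxcr2-/-* mouse 1. Its log2 fold change of 0.74 (SE 0.16, adjusted p = 0.00255, edgeR) was the smallest among the 7 genes without overlap.

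*Rad51ap1* (ENSMUSG00000030346, chr6:126923050-126939587, minus strand) codes for a protein that helps to join the broken strand with the intact copy. Its level was 1.39, 1.77, 2.03 and 0.636 CPM in WT and 4.04, 5.51, 3.99 and 5.23 CPM in *Cxcr2-/-* mice. Even the lowest *Cxcr2-/-* library was well above the highest WT library, and WT mouse 4 was low within its group. The change was 3.20-fold (log2 fold change 1.68, SE 0.29, adjusted p = 0.000534, edgeR), on 22 to 88 counts in WT.

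*Fancd2* (ENSMUSG00000034023, chr6:113531682-113597017, plus strand) had the highest fold change of the 9. Its protein is one of the pair on which ubiquitin is placed when the Fanconi pathway is switched on. It was at 2.85, 2.69, 3.34 and 2.17 CPM in WT and at 8.67, 8.55, 10.4 and 10.8 CPM in *Cxcr2-/-* mice. The groups were far apart, with mice 3 and 4 above mice 1 and 2 among the *Cxcr2-/-* animals. The means were 2.76 ± 0.483 and 9.60 ± 1.16 CPM (SD, n = 4 each), a change of 3.47-fold (log2 fold change 1.79, SE 0.17, adjusted p = 4.58e-06, edgeR).

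*Fanci* (ENSMUSG00000039187, chr7:79391929-79450264, plus strand), which codes for the other protein of the pair, was at 2.37, 3.07, 3.31 and 2.69 CPM in WT and at 5.59, 7.91, 6.02 and 6.64 CPM in *Cxcr2-/-* mice. The groups did not overlap, and *Cxcr2-/-* mouse 2 was the highest. The log2 fold change was 1.19 (SE 0.18, adjusted p = 0.000162, edgeR). Of its 5774 exon bases, 16.0% also lie in exons of *Polg*, the mitochondrial DNA polymerase, on the opposite strand. *Polg* was at 74.4 to 87.6 CPM in WT and 74.3 to 109 CPM in *Cxcr2-/-* libraries (log2 fold change 0.14, adjusted p = 0.379, edgeR). Per kilobase of exon its WT mean was 7.46 CPM, against 0.495 CPM for *Fanci*, and its part in the counts of *Fanci* was not tested.

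*Fanca* (ENSMUSG00000032815, chr8:123268300-123318576, minus strand), a subunit of the Fanconi core complex, stood apart. It was at 63.1, 62.6, 70.8 and 70.9 CPM in WT and at 117, 106, 69.9 and 71.1 CPM in *Cxcr2-/-* mice. *Cxcr2-/-* mice 1 and 2 were above every WT mouse, whereas mice 3 and 4 lay within or next to the WT range. The log2 fold change was 0.45 (SE 0.16, adjusted p = 0.0340, edgeR), a 1.36-fold difference that did not reach the threshold for a call. The adjusted p was 0.05 or more under upper-quartile normalization (0.102) and total counts (0.0602), and without each WT mouse or *Cxcr2-/-* mouse 1 or 2 (0.0526 to 0.0967).

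*Fanca* shares 920 of its 8761 exon bases (10.5%) with *Zfp276*, a zinc finger gene on the opposite strand. *Zfp276* was at 80.9, 79.6, 63.8 and 81.9 CPM in WT and at 127, 97.0, 67.3 and 61.6 CPM in *Cxcr2-/-* mice. It was thus high in the same *Cxcr2-/-* mice 1 and 2 as *Fanca*, with groups that overlapped (log2 fold change 0.21, adjusted p = 0.415, edgeR). Across the 8 libraries, the deviations of log2 CPM from the group means of *Fanca* correlated with those of *Zfp276* at r = 0.85 and with those of *Polg*, on another chromosome, at r = 0.80, as a description of points that share a library and its depth. The strand setting of the counting is not given in the sources used here, and the part of overlapping reads in the values of *Fanca* was not tested. The granulocyte regulator *Cebpe*, named after its values were seen, was also highest in *Cxcr2-/-* mice 1 and 2, with 252 and 187 CPM. It was at 165 and 138 CPM in mice 3 and 4, and at 77.4 to 89.4 CPM in WT. A link between *Cebpe* and *Fanca* was not tested.

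**Figure D2:**
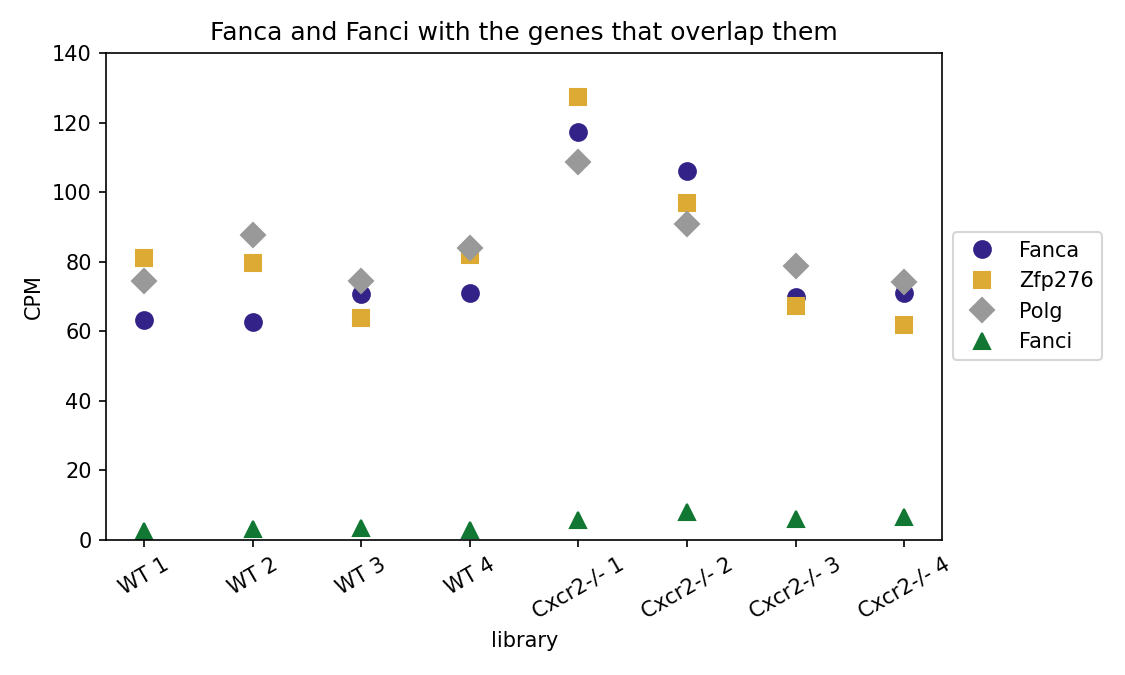
CPM (vertical axis, from 0) of *Fanca* and *Fanci* and of the opposite-strand genes *Zfp276* and *Polg* whose exons overlap theirs, in each of the 8 libraries. *Fanca* and *Zfp276* are both highest in *Cxcr2-/-* mice 1 and 2 (117 and 106 CPM, 127 and 97.0 CPM), while *Fanci* stays between 2.37 and 7.91 CPM.

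*Exo1* (ENSMUSG00000039748, chr1:175880581-175913489, plus strand) codes for the exonuclease that cuts the end back over long stretches. It was at 1.22, 1.33, 1.23 and 0.521 CPM in WT and at 1.97, 2.55, 2.77 and 3.84 CPM in *Cxcr2-/-* mice. No *Cxcr2-/-* library reached down to the WT range, and WT mouse 4, with 18 counts, was the lowest of all. The log2 fold change was 1.36 (SE 0.30, adjusted p = 0.00294, edgeR).

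*Blm* (ENSMUSG00000030528, chr7:80454733-80535119, minus strand), which codes for the helicase mutated in Bloom syndrome, was at 4.80, 5.69, 5.29 and 5.15 CPM in WT and at 8.54, 9.21, 8.84 and 11.3 CPM in *Cxcr2-/-* mice. The WT libraries were within 1 CPM of each other and the *Cxcr2-/-* libraries all lay above them, mouse 4 the highest. The log2 fold change was 0.85 (SE 0.14, adjusted p = 0.000336, edgeR).

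*Chek1* (ENSMUSG00000032113, chr9:36708482-36727065, minus strand) codes for CHK1, the kinase through which ATR stops the cell cycle when replication stalls. It was at 1.33, 1.35, 2.67 and 1.19 CPM in WT and at 1.997, 2.35, 2.97 and 3.91 CPM in *Cxcr2-/-* mice. WT mouse 3 was above *Cxcr2-/-* mice 1 and 2, so that the groups overlapped. The log2 fold change was 0.79 (SE 0.30) with an adjusted p of 0.0499 in edgeR. This call rests on the threshold: the adjusted p was 0.0523 with RLE normalization, 0.0942 with upper-quartile normalization, 0.0992 with total counts and 0.0587 with at least 10 counts in every library. It was over 0.05 without WT mouse 1, 2 or 4 or *Cxcr2-/-* mouse 2, 3 or 4 (0.0530 to 0.158), and 0.00852 without WT mouse 3.

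Compared per kilobase of exon, *Fanca* was the highest in both groups, at 7.63 ± 0.524 CPM per kb in WT and 10.4 ± 2.76 CPM per kb in *Cxcr2-/-* neutrophils (SD, n = 4 each), with no overlap with the next gene. In WT it was followed by *Blm* (0.596), *Brca1* (0.552), *Fanci* (0.495), *Brca2* (0.425), *Chek1* (0.352), *Fancd2* (0.348), *Rad51ap1* (0.303) and *Exo1* (0.127), as mean CPM per kb. From *Blm* to *Exo1*, each gene's WT range overlapped that of the next, so that this order does not hold beyond the spread between mice for any pair of neighbors. In *Cxcr2-/-* neutrophils the order after *Fanca* was *Brca1* (1.39), *Fancd2* (1.21), *Fanci* (1.13), *Blm* (1.08), *Rad51ap1* (0.975), *Brca2* (0.713), *Chek1* (0.606) and *Exo1* (0.330), and again the ranges of all neighbors overlapped. *Fancd2* moved from place 7 in WT to place 3, and *Blm* from place 2 to place 5.

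**Figure D3:**
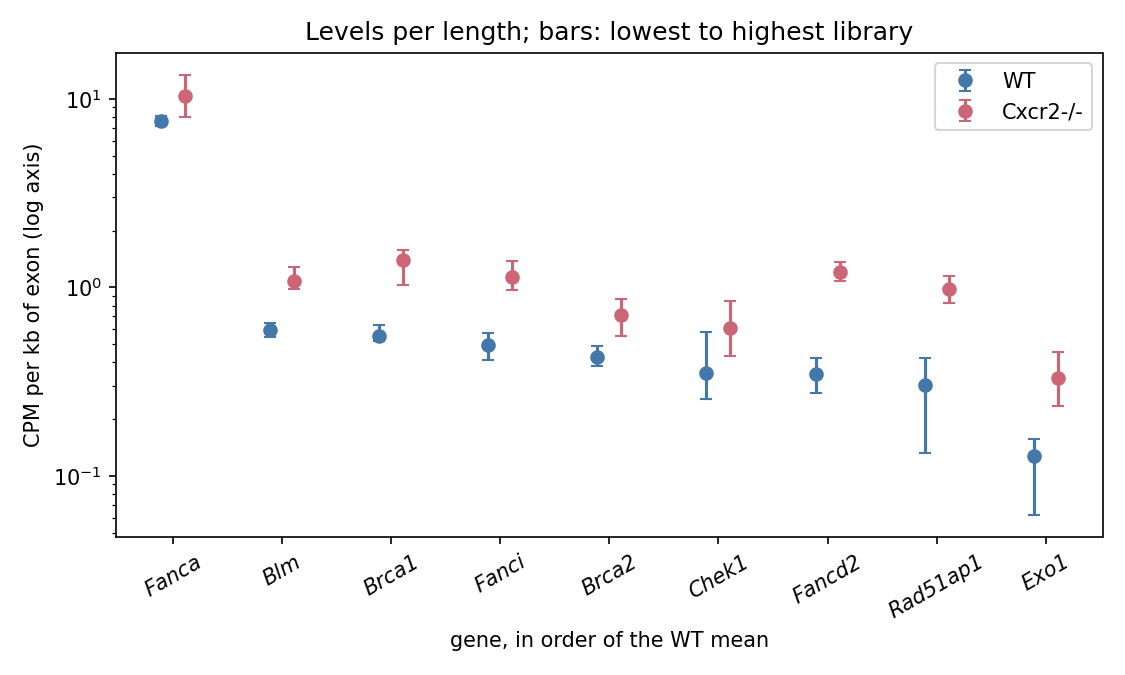
Mean CPM per kb of exon (log axis) of the 9 genes in WT (blue) and *Cxcr2-/-* (red) neutrophils, in order of the WT mean, with bars from the lowest to the highest of 4 libraries. *Fanca* (7.63 CPM per kb in WT) lies more than 10 times above *Blm* (0.596), and the bars of the other genes overlap those of their neighbors.

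The *Cxcr2-/-* mice differed among themselves. Mouse 4 was the highest of the 4 for 5 genes (*Brca1*, *Fancd2*, *Exo1*, *Blm* and *Chek1*), mouse 2 for 3 genes (*Brca2*, *Rad51ap1* and *Fanci*) and mouse 1 for *Fanca* alone. Mouse 1 was the lowest for 6 genes. The summed level of the 9 genes without *Fanca* was 23.4 to 27.6 CPM in WT and 47.1, 60.7, 56.4 and 65.7 CPM in *Cxcr2-/-* mice 1 to 4. *Fanca* made up 70.0% to 75.2% of the summed CPM in WT and 52.0% to 71.3% in *Cxcr2-/-* libraries, and hides the others in a plain sum. Within the groups, log2 CPM deviations of 25 of the 36 pairs of genes correlated positively over the 8 libraries, with r from -0.70 to 0.87. *Fanca* was positive with 1 of the 8 others (*Fanci*), and the 28 pairs without it were positive 24 times (median r = 0.47). These correlations are over 8 points that share library and depth, at low counts.

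**Figure D4:**
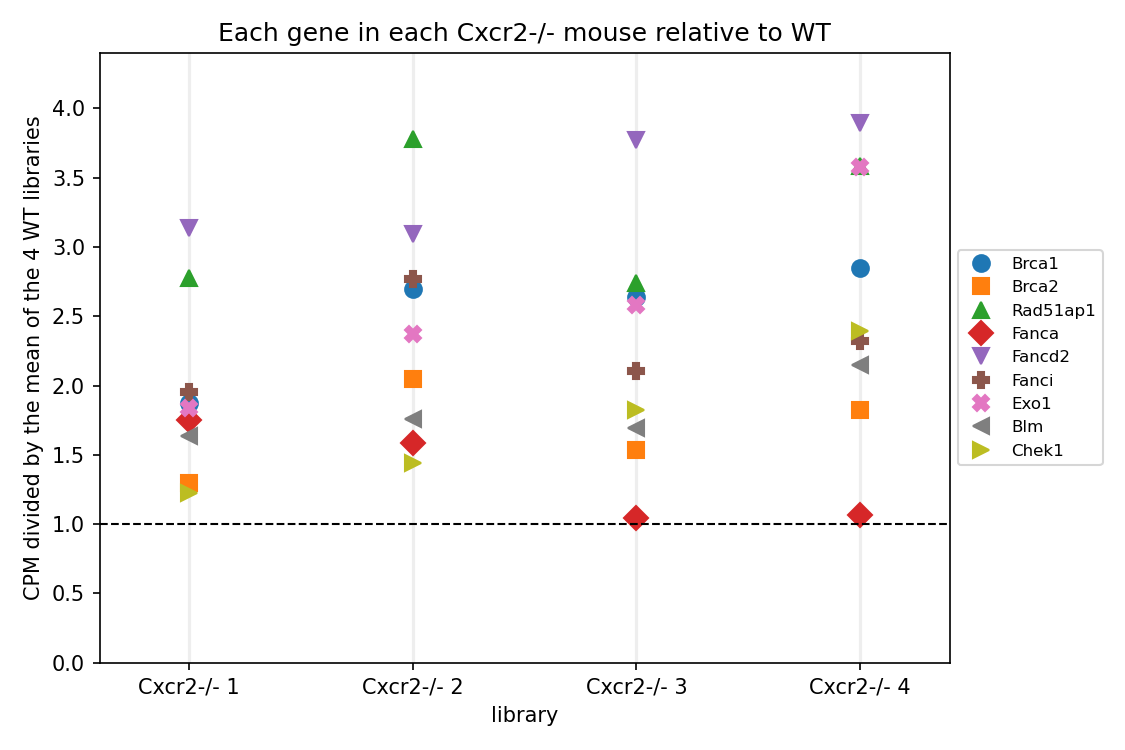
CPM of each gene in each *Cxcr2-/-* library divided by the mean CPM of the 4 WT libraries (vertical axis, from 0; the dashed line marks the WT mean). *Fancd2* lies between 3.09 and 3.90, *Chek1* runs from 1.22 in mouse 1 to 2.40 in mouse 4, and *Fanca* runs from 1.75 in mouse 1 to 1.06 in mouse 4.

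RNA of neutrophil precursors was also higher in *Cxcr2-/-* neutrophils. All 11 genes of the precursor list were called higher, with a summed level of 19509 to 23599 CPM in WT and of 63874, 53821, 51253 and 44732 CPM in *Cxcr2-/-* mice 1 to 4, and none of its defining markers was at 0. The sum, most of it from secondary granule genes such as *Ltf* and *Ngp*, was thus highest in mouse 1 and lowest in mouse 4. The summed level of the 9 genes without *Fanca* was instead lowest in mouse 1 (47.1 CPM) and highest in mouse 4 (65.7 CPM). *Elane*, the neutrophil elastase of primary granules, was at 0.29 to 2.11 CPM in WT and at 12.0, 14.5, 55.5 and 93.2 CPM in *Cxcr2-/-* mice 1 to 4. *Mpo*, the myeloperoxidase, was at 1.13 to 6.25 CPM in WT and at 19.1, 20.2, 81.2 and 146 CPM in *Cxcr2-/-* mice, and *Prtn3*, proteinase 3, at 0.87 to 3.53 and 20.4, 17.5, 63.5 and 92.1 CPM. For these 3 defining markers the order was the other way than for the precursor sum, with mice 3 and 4 far above mice 1 and 2. The part of the precursor genes in the result was not tested. A fit without *Cxcr2-/-* mice 3 and 4 was added after the data were seen, and 8 of the 9 genes were called higher in it. Over all 17690 genes tested in that fit, 2504 were called higher and 3057 lower. The 8 called genes were not the same as in the main fit: *Fanca* (log2 fold change 0.72, adjusted p = 0.000136, edgeR) was called and *Chek1* (0.40, adjusted p = 0.361, edgeR) was not. Mice 1 and 2 were also above WT for *Elane*, *Mpo* and *Prtn3*, so this fit cannot show the part of precursors.

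Markers of other cell types moved in no common direction. The erythroid marker *Klf1* was at 0 in 6 of the 8 libraries and *Slc4a1* reached at most 0.73 CPM, while the list's sum, mostly *Tfrc*, was 19.8 to 29.2 CPM in WT and 18.8 to 37.0 CPM in *Cxcr2-/-* libraries. The progenitor markers *Cd34* (0.25 to 0.78 CPM) and *Kit* (15.4 to 37.1 CPM) did not pass the test. Of the 4 tested genes of their list, 1 was called higher and none lower. That list summed to 27.4 to 49.1 CPM in WT and 43.3 to 59.5 CPM in *Cxcr2-/-* libraries. The B cell list summed to 65.2 to 146 CPM in WT and 32.3 to 70.0 CPM in *Cxcr2-/-* libraries, with 5 of its 7 tested genes called lower, among them the marker *Ms4a1*, and 1, *Jchain*, called higher. Of the macrophage markers, *Csf1r* and *Adgre1*, which codes for F4/80, fell (log2 fold changes -0.93 and -1.31), and *C1qa* was highest in WT mouse 2 (5.79 CPM). That list summed to 688 to 814 CPM in WT and 843 to 966 CPM in *Cxcr2-/-* libraries, with *Ly6c2* and *Ccr2* called higher. The T and NK cell list summed to 102 to 120 CPM in WT and 101 to 144 CPM in *Cxcr2-/-* libraries, nearly all of it *Cd3d*. Of its 7 tested genes, 1 was called higher and 1 lower, and *Cd3e* stayed at or under 0.56 CPM. The dendritic list summed to 9.14 to 28.6 CPM in WT and 5.81 to 8.65 CPM in *Cxcr2-/-* libraries, the megakaryocyte list to 5.92 to 7.94 and 4.07 to 6.62 CPM, and the eosinophil and basophil list to 48.8 to 69.5 and 38.2 to 64.6 CPM. Of the 4 tested dendritic genes, 2 were called lower and none higher. Of the 5 tested eosinophil and basophil genes, 3 were called higher and 1 lower (median log2 fold change 1.45). Neither direction had a call among the 2 tested megakaryocyte genes. Of the defining markers of these lists, *Siglech*, *Pf4* and *Mcpt8* did not exceed 0.24 CPM in any library, and *Epx* rose from 0.09 to 0.88 CPM in WT to 0.61 to 5.10 CPM. The part of these markers in the values of the 9 genes was not tested.

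More of the remaining genes of the same pathways rose than fell. The lists were those for recombination mediators, resection and resolution, the other Fanconi genes, the checkpoint and the BRCA1-A and 53BP1 complexes. Of their 79 tested genes, 35 (44.3%) were called higher and 2 (2.53%) lower, beside the 15.7% of all tested genes in each direction. By the adjusted p alone 43 (54.4%) rose and 4 (5.06%) fell, beside 23.7% and 21% of all tested genes, and 32 did not pass. Their median log2 fold change was 0.56.

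Among recombination mediators, 8 of 17 genes rose and 1 fell (median log2 fold change 0.50). *Bard1*, the partner of *Brca1*, rose most, from 4.68 ± 0.581 to 15.7 ± 1.45 CPM (SD, n = 4 each; log2 fold change 1.75). The DNA translocases *Rad54l* and *Rad54b* each had a log2 fold change of 1.38. *Rad51d*, another mediator, fell from 28.9 ± 1.88 to 22.0 ± 2.38 CPM (log2 fold change -0.39, adjusted p = 0.00752, edgeR), below the fold threshold. *Rad52* (0.28) and *Swi5* (0.56), the risers with the smallest log2 fold changes, were also under 1.5-fold. *Palb2* (1.32), which links *Brca1* to *Brca2*, was named after its values were seen, and it rose. The partners *Bard1* and *Palb2* thus rose with *Brca1* and *Brca2*. *Rad51b* (0.82), *Rad51c* (0.12), *Xrcc2* (0.50) and *Xrcc3* (-0.29), which act beside *Rad51d* and were also named after their values were seen, did not pass the test.

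In resection and resolution, the group of *Exo1* and *Blm*, 9 of 15 genes rose and 1 fell (median log2 fold change 0.56). The resolvase *Gen1* went from 2.46 ± 0.0675 to 7.83 ± 0.381 CPM (log2 fold change 1.67), *Rmi2*, a subunit of the BLM complex, had a log2 fold change of 1.29 and the helicase *Recql* one of 0.87. *Mre11a*, the nuclease that starts resection, fell from 23.6 ± 1.14 to 12.8 ± 0.588 CPM (log2 fold change -0.88, adjusted p = 1.21e-05, edgeR) without overlap of the groups. *Wrn* (0.29) and *Slx4* (0.49) rose by less than 1.5-fold. The partners of *Mre11a*, *Rad50* (0.82) and *Nbn* (0.70), rose, and *Dna2*, a long-range nuclease like *Exo1*, was at -0.17 and did not pass; these 3 were named after their values were seen.

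Of 19 other Fanconi genes, 9 rose and 1 fell (median log2 fold change 0.54). *Uhrf1*, a sensor of crosslinks that also maintains DNA methylation, went from 8.44 ± 0.390 to 34.03 ± 4.02 CPM (log2 fold change 2.01), the helicase *Brip1* had a log2 fold change of 1.49 and the core subunit *Fancg* one of 1.34. *Faap100*, another core subunit, fell from 26.1 ± 4.06 to 16.7 ± 1.76 CPM (log2 fold change -0.65, adjusted p = 0.00107, edgeR). *Ercc4* (0.38) and *Rfwd3* (0.54) rose by less than 1.5-fold. The core complex thus held genes that rose, such as *Fancg* and, by the adjusted p alone, *Fanca*, and others that fell (*Faap100*) or did not pass the test. *Fancc* (0.11), *Fance* (0.005), *Fancf* (0.84) and *Fancl* (-0.008), named after their values were seen, were among those that did not pass. *Fancb* (0.91), *Fancm* (0.84) and *Faap20* (0.67) of the same list, also named after their values were seen, were called higher without overlap of the groups.

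In the checkpoint list of *Chek1*, 10 of 16 genes rose and none fell (median log2 fold change 0.83). *Timeless*, which stabilizes the replication fork, went from 1.86 ± 0.179 to 7.12 ± 2.20 CPM (log2 fold change 1.94). *Cdc25a*, the phosphatase that CHK1 marks for destruction, went from 24.8 ± 0.801 to 71.2 ± 2.56 CPM (1.52), and *Clspn*, the adaptor that brings CHK1 to ATR, had a log2 fold change of 1.47. *Rad17* (0.84), *Hus1* (0.81) and *Mdc1* (0.39) had the smallest log2 fold changes that passed. The kinases *Atr* (-0.05) and *Atm* (-0.36), named after their values were seen, did not pass the test. Of the BRCA1-A and 53BP1 genes, 7 of 12 rose and 1 fell (median 0.42), with *Babam1* (1.35), *Paxip1* (0.84) and *Rnf168* (0.70) the highest, *Abraxas1* (0.59) and *Babam2* (0.24) the lowest that rose, and *Trp53bp1*, which opposes resection, at -0.32 (adjusted p = 0.0442, edgeR) with overlapping groups.

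Other repair pathways were compared as background for the 9 genes. Of 51 tested genes of end joining, mismatch, base excision and nucleotide excision repair, 7 (13.7%) were called higher and 2 (3.92%) lower, beside 15.7% of all tested genes in each direction, with a median log2 fold change of 0.32. By the adjusted p alone 20 (39.2%) rose and 4 (7.84%) fell, beside 23.7% and 21% of all tested genes. Of 10 end joining genes 4 rose, led by *Xrcc5*, the KU80 subunit (1.45), then *Lig4* (0.46), *Xrcc4* (0.45) and *Polm* (0.30), and the nuclease *Dclre1c* fell (-0.52). Of 7 mismatch repair genes 2 rose, among them *Msh3* (0.32), and none reached 1.5-fold. In base excision repair, 6 of 15 rose, with *Xrcc1* (0.79) and *Ogg1* (0.53) among the highest, *Neil3* (0.39) and *Tdg* (0.44) the lowest that rose, and *Neil1* fell (-0.91). In nucleotide excision repair 8 of 19 rose, with *Gtf2h4* (1.09) and *Ercc8* (0.84) among the highest and *Rad23b* (0.43) the lowest that rose, and the damage sensor *Xpc* (-0.77) and *Uvssa* (-0.33) fell. All these values are log2 fold changes.

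Genes of the dividing cell were compared with the 9. Of 21 DNA replication genes 18 were called higher and none lower (median log2 fold change 1.26), led by *Gins1* (2.35), *Gins2* (1.82) and *Mcm6* (1.67), with *Cdc45* (0.67), *Fen1* (0.91) and *Cdt1* (1.003) the lowest that rose. Of 20 mitosis genes 19 were called higher (median 2.002), led by *Ccnb1* (2.38), *Plk1* (2.23) and *Cenpe* (2.12), with *Aurka* (0.87) and *Mki67* (1.41) the lowest that rose, and *Kif23* was called lower (-1.36). The median of the 9 genes, 1.19, lay near that of the replication list. The replication list summed to 222 to 252 CPM in WT and to 319, 335, 454 and 514 CPM in *Cxcr2-/-* mice 1 to 4, so that mice 3 and 4 were highest, as for *Elane* and *Mpo*. The mitosis list summed to 614 to 680 CPM in WT and to 1446, 1605, 1495 and 1449 CPM in *Cxcr2-/-* mice 1 to 4, with mouse 2 highest. Of 18 E2F and DREAM genes, 12 rose and none fell (median 0.67), with *Foxm1* (1.58), *E2f7* (1.35) and *Lin9* (1.22) the highest and *Lin37* (0.48), *E2f3* (0.62) and *E2f4* (0.62) the lowest that rose.

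**Figure D5:**
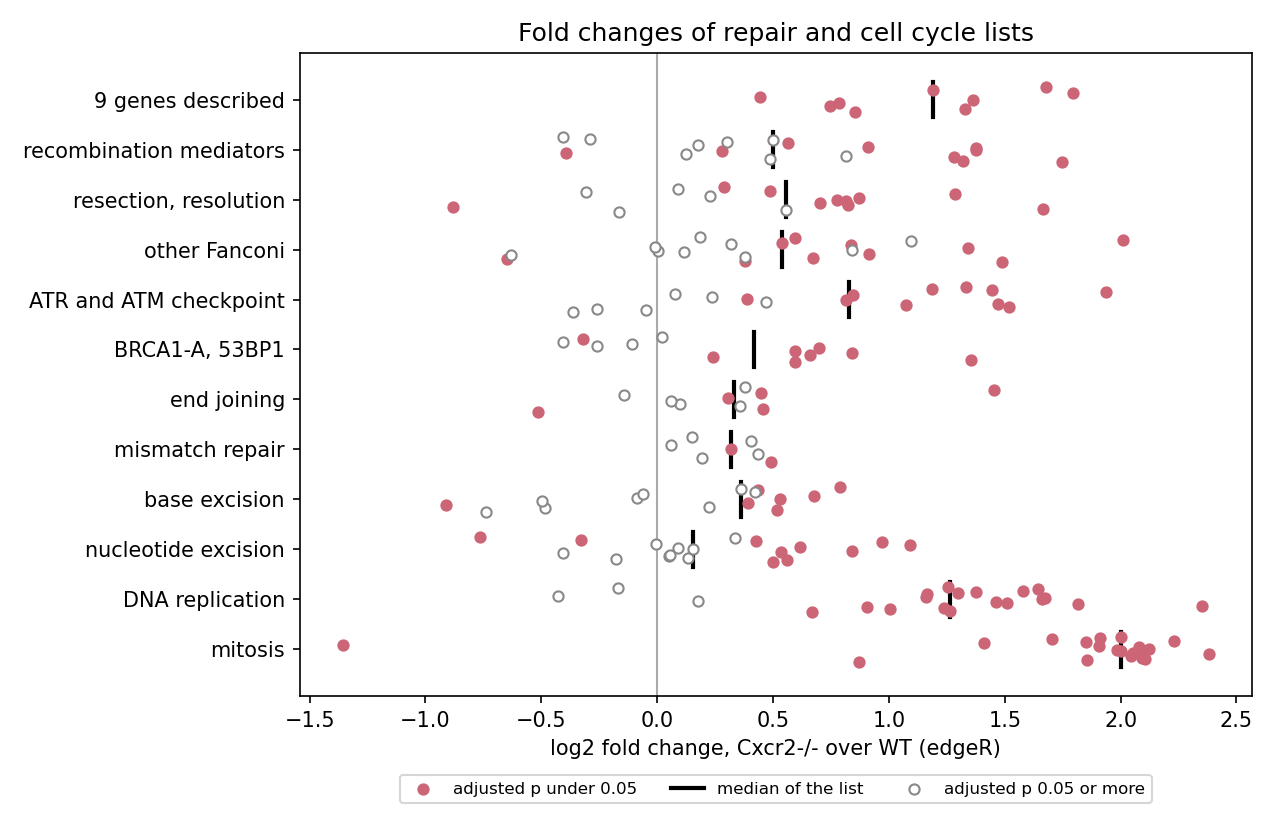
Log2 fold change of *Cxcr2-/-* over WT (horizontal axis, edgeR) of each tested gene of the lists; filled points have an adjusted p under 0.05, open points do not, and black lines mark the median of a list. The 9 genes (median 1.19) lie near the DNA replication list (1.26), below the mitosis list (2.002) and above the other repair lists (0.15 to 0.36).

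The genes whose mouse-to-mouse pattern was most like that of the 9 were sought over all 8 libraries, as the correlation of log2 CPM deviations from the group means with the mean deviation of the 9. They were *Ulbp1* (r = 0.98), *Impad1* (0.98), *Mrps31* (0.97), *Bbs9* (0.96), *2610008E11Rik* (0.96), *Nup160* (0.95), *Cul2* (0.94) and *Ywhaq* (0.94), among genes whose average log2 CPM was 1 or more. They were picked as the highest of a search over many genes, so high values of r were built in. *Bbs9* fell (log2 fold change -0.40), *2610008E11Rik* (-0.23) and *Ywhaq* (0.13) did not pass the test, and the others rose. The points share library and depth, and the members' own correlations with their mean ran from -0.36 for *Fanca* and 0.14 for *Brca2* to 0.89 for *Rad51ap1*.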

How the data were processed

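RNA of spleen neutrophils was sequenced in 4 WT and 4 *Cxcr2-/-* mice, with groups and replicate numbers taken from the sample labels. The authors trimmed reads of 150 bases to a minimum of 120 bases, used STAR for the alignment to mm10 and HTSeq for counting, and the deposited values are raw counts per gene without normalization. Identifiers were matched without their version to GENCODE M21 (GRCm38): 52081 of 55414 matched, and 35 with the same version, so that the authors' counting used another annotation release. Symbols, positions and exon lengths come from M21. The 5 summary rows of HTSeq were left out of library sizes and tests.

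Counts were compared in R 4.3.3 with edgeR 4.0.16 (glmQLFit and glmQLFTest, TMM normalization, filterByExpr, Benjamini-Hochberg adjustment). Genes were called at an adjusted p under 0.05 and at least 1.5-fold. The SE of a log2 fold change was derived from the test, as its absolute value divided by the square root of the F statistic. edgeR's common biological coefficient of variation was 0.202. Every pair of replicates differed by more than sampling noise, and the p-values measure the spread between these mice. Levels are CPM on TMM-scaled library sizes. The steps were also run on counts simulated from edgeR's own fit with few changed genes. The data differ from these counts in that many genes changed, so no conclusion is drawn from that run.

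The genes described and the lists were chosen with earlier results of these data known. The named genes are the 9, *Cxcr2*, up to 3 highest and 3 lowest log2 fold changes with an adjusted p under 0.05 in each list, the 8 genes most like the 9 and the defining markers of cell types. *Rad51b*, *Rad51c*, *Xrcc2*, *Xrcc3*, *Palb2*, *Rad50*, *Nbn*, *Dna2*, *Fancb*, *Fancc*, *Fance*, *Fancf*, *Fancl*, *Fancm*, *Faap20*, *Atr*, *Atm* and *Cebpe* were added after their values were seen. So were some markers and the genes whose exons overlap those of the 9. A few genes this rule names are left out of the text. *Mnd1* was removed by the filter, and *Shld3* and *Lin54* had no row. The alternatives were DESeq2 1.42.0, RLE, upper-quartile and total-count scaling, other filters and fold thresholds, the replicate number as a block and each library left out.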

Additional observations from a re-analysis of the deposited data

Results flagged for a closer look

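In 3 of the 18 groups of 4 libraries, 1 library stood apart from the other 3, with a gap to the nearest value above Dixon's critical share of the range. Chance gives about 1 in 20 groups. The level of *Brca1* in WT mouse 2 was 5.37 CPM, where the next was 4.58 CPM. *Exo1* in WT mouse 4 was at 0.521 CPM, where the next was 1.22 CPM. *Chek1* in WT mouse 3 was at 2.67 CPM, where the next was 1.35 CPM, and the adjusted p of *Chek1* was 0.00852 without that library in edgeR.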

How the results depend on the processing

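Of the 9 genes, 7 had an adjusted p under 0.05 in edgeR or DESeq2 under all 16 alternatives, and *Fanca* under 7 (0.000136 to 0.102) and *Chek1* under 5 (0.00852 to 0.361). No direction was reversed. The count called higher was 8, between 7 and 8 when 1 library was left out, and 5 at 2-fold or more. Over all tested genes, 2399 to 2603 were called higher when 1 library was left out, beside 2628 in the main fit. The share of all tested genes at 2-fold was not counted. Of the 79 pathway genes, 35 were called higher (31 to 35 with 1 library left out, 18 at 2-fold) and 2 lower (1 to 3 with 1 left out, 1 without WT mouse 2, 4 without a fold threshold, 0 at 2-fold, 5 without *Cxcr2-/-* mice 3 and 4). Of the other repair genes, 7 were called higher (20 without a fold threshold, 2 at 2-fold, 5 to 8 with 1 left out) and 2 lower (5 with upper-quartile normalization, 4 with total counts, 4 without *Cxcr2-/-* mice 3 and 4, 4 without a fold threshold, 0 at 2-fold, 2 to 3 with 1 left out). *Cxcr2* had a log2 fold change of -6.94 to -6.75 with 1 left out. Fewer samples or another threshold are built into most of these, and the cause of the scaling effects was not tested. Upper-quartile normalization shifted the median log2 fold change of all tested genes by -0.12 and the share of calls that were higher from 50% to 38.0%. Same-numbered mice are different animals, and their deviations correlated at 0.116, -0.188, 0.158 and -0.262. With the replicate block 8 of the 9 genes were called higher, beside 2470 higher and 2518 lower of all 16778 tested genes. *Fanca* had an adjusted p of 0.0673 in edgeR with the block. The first E2F form on 1 strand only was found in 0 of 7 promoters. Depth limits *Exo1*, *Chek1* and *Rad51ap1*, with 18 to 100 counts per WT library.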
